A study of Saccharomyces cerevisiae with 24 samples.

Results

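The mRNA levels described here belong to 47 genes that encode the core of the RNAPII transcription machinery of the yeast *Saccharomyces cerevisiae*, namely 10 subunits of RNAPII, 21 subunits of Mediator outside the Cdk8 module and 16 subunits of the general transcription factors. They were chosen by name from the 5315 distinct gene names on the array, and each matched 1 probe. *RPB1*, where the strains were altered, the genes of the Cdk8 module and *RPC10*, which encodes the shared subunit Rpb12, are not among them. The question the comparisons address is whether cells with a shortened CTD, with or without *CDK8*, change the mRNA of the machinery that works with the CTD.

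RNAPII makes mRNA with a catalytic center formed by its largest subunits, and its CTD, a tail of heptapeptide repeats on Rpb1, binds the factors that start, process and finish a transcript. At a promoter, TBP and the other general factors place RNAPII on the DNA, TFIIH opens the DNA and phosphorylates the CTD through its kinase Kin28, and Mediator joins the CTD to gene-specific activators. The head module of Mediator holds the CTD, the middle and tail modules join it to activators, and the Cdk8 kinase module binds reversibly.

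The data came from 24 dual-channel arrays, each with the RNA of a strain in one dye and a common wild type reference RNA in the other. Wild type had 8 arrays, labelled k1 (4 arrays), k2 (2) and k3 (2), and the other groups had 2 arrays each, called a and b. These were wild type 330 rpm, *RPB1-CTDWT*, *rpb1-CTD20*, *rpb1-CTD13*, *rpb1-CTD12*, *rpb1-CTD11*, *rpb1-CTD12 cdk8Δ* and *rpb1-CTD11 cdk8Δ*, named by the CTD repeats left. All were haploid BY4742 strains according to the labels, grown to mid-log phase in synthetic complete medium with glucose. In the truncation strains a stop codon was placed in the genomic *RPB1*, with a NAT resistance marker behind it, and *RPB1-CTDWT*, whose label gives 26 repeats, carries the same marker behind the natural stop codon. No array of a strain with *CDK8* deleted and a full-length CTD was analysed here. The label of wild type 330 rpm names its shaking speed, whereas 230 rpm is the speed in the growth protocol of every sample. The design text describes the 2 arrays of a mutant as independent cultures, but whether wild type arrays with the same k label share a culture is not stated, so that part of the spread behind the p values may be technical.

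Checks of the labels bear on every comparison below. The probe of *SSN3*, which encodes Cdk8, was above background on 20 of 20 arrays with the gene and on 0 of 4 arrays of the double mutants. *LYS2*, a lysine synthesis gene and common strain marker, was 2.65 to 3.07 higher on the log2 scale in *rpb1-CTD20*, *-CTD13*, *-CTD12* and *-CTD11* than in wild type, and 0.03 higher in *RPB1-CTDWT*. *MET17*, another marker, differed from wild type by -4.99, -4.59 and -4.78 in *rpb1-CTD20*, *-CTD13* and *-CTD12* but by 0.99 in *rpb1-CTD11*. *OLI1*, a gene of the mitochondrial genome, changed by -5.42 in *rpb1-CTD11* and -5.43 in *rpb1-CTD12*, and the double mutants were higher than their single mutants by 5.62 at 11 repeats and 5.07 at 12 repeats, where *MET17* differed by -1.16 and 4.39. The 4 alpha-cell genes counted, which mark the BY4742 mating type, were all lowered in *rpb1-CTD11* (median -1.83) and *rpb1-CTD12* (median -0.75), while 6 genes of the opposite mating type lay between -0.25 and 0.19 in *rpb1-CTD11*. The a array of *rpb1-CTD12 cdk8Δ* stood apart, with 0.55 for the a-factor gene *MFA1*, 0.51 for *MFA2* and 0.13 for the alpha gene *SAG1*, against 0.19, 0.20 and -0.68 on the b array. Several results that rest on that a array are also described without it. The strains therefore differed in more than the CTD and *CDK8*, although all carry the BY4742 label. In *LYS2*, *RPB1-CTDWT* was like wild type and unlike the truncation strains. The part of these differences in the results was not tested.

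Of the 47 genes, 46 were above the background of empty spots in the sample channel of all 24 arrays, and *MED4*, a Mediator middle subunit, was above it on 2 and is not interpreted. Among the 8 wild type arrays the median SD of the 47 genes was 0.05 on the log2 scale (0.06 over all 6388 gene probes), and the median SE of a difference between a strain and wild type was 0.04, so that small changes could pass the test. Values of arrays below are log2 ratios to the reference after removal of the dye effect, and changes are log2 differences between groups from limma, fitted over all probes. A gene is called changed, raised or lowered here where its p, adjusted by Benjamini-Hochberg over the 6388 probes, was under 0.01.

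The machinery genes changed little in any strain. None of the 47 passed both the adjusted p in limma and the 1.7-fold threshold used in the study in any comparison, save *NUT2* between *rpb1-CTD12* and *rpb1-CTD13* on the spiked-in scale below, and the largest change was a 1.40-fold rise of *RPB2* in *rpb1-CTD11*. Of all probes, 3.9% passed both in *rpb1-CTD11*, 2.25% in *rpb1-CTD12*, 0.423% in *rpb1-CTD13*, 0.0939% in *rpb1-CTD20*, 0.0783% in *RPB1-CTDWT* and 0.297% in wild type 330 rpm against wild type, 3.68% and 3.18% in the double mutants with 11 and 12 repeats against wild type 330 rpm, and 5.48% and 4.16% on loss of *CDK8* at these lengths. Between neighbouring lengths 0.313% (11 and 12 repeats) and 2.1% (12 and 13) did. By the adjusted p alone, 29 genes (61.7%) changed in at least 1 comparison and 18 in none, against 73.7% of all probes that changed in at least 1. In *rpb1-CTD11* 13 were raised and 7 lowered (42.6%, against 49.1% of all probes, 24.3% raised and 24.9% lowered), and in *rpb1-CTD12* 5 were raised and 4 lowered (19.1%, against 36% of all probes, 18.6% raised and 17.4% lowered). The median absolute change of the 47 genes was 0.12 in *rpb1-CTD11* and 0.09 in *rpb1-CTD12*, and that of all probes was 0.16 and 0.12. The share of changed machinery genes was below that of all probes in every comparison with a strain of 11 or 12 repeats, a difference that was not tested.

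**Figure D1:**
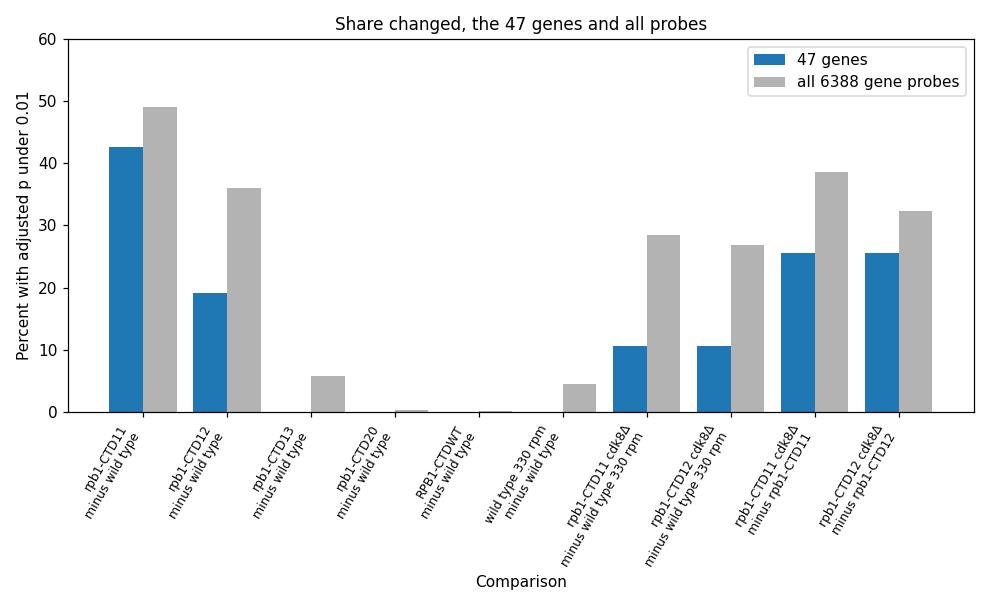
Percent of the 47 machinery genes (blue) and of all 6388 gene probes (grey) with an adjusted p under 0.01, for 10 comparisons on the horizontal axis. In *rpb1-CTD11* the shares were 42.6% and 49.1%, and in *rpb1-CTD13*, *rpb1-CTD20*, *RPB1-CTDWT* and wild type 330 rpm none of the 47 changed.

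With longer CTDs no change passed the test. In *rpb1-CTD13* the 47 genes lay between -0.06 (*NUT2*) and 0.13 (*RPB11*) against wild type, in *rpb1-CTD20* between -0.11 (*RPB10*) and 0.12 (*SPT15*), and in *RPB1-CTDWT* between -0.08 (*SUA7*) and 0.10 (*RPB2*). Limma counted 0 of 47 in each, where 5.85%, 0.376% and 0.141% of all probes changed, and an unadjusted p under 0.05 was reached by 6, 3 and 2 genes. The share of all probes at that p is not given, so no excess is read from such counts here or below. Wild type 330 rpm differed from wild type in 0 of 47 genes, against 4.46% of all probes, with 6 genes at an unadjusted p under 0.05. The lowest of these was *SPT15* at -0.14 (adjusted p = 0.099).

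These counts depend on the scale and on the model. All changes are relative to the bulk of the mRNA on an array. The spiked-in scale instead subtracts a loess curve fitted through the 14 spiked-in probes alone, so that the shift of a gene depends on its intensity. This scale moved the median of all probes by -0.59 in *rpb1-CTD13*, -0.32 in *rpb1-CTD20* and 0.31 in wild type 330 rpm. Then 43 of the 47 genes were lower in *rpb1-CTD13* than in wild type, where 75.2% of all probes changed and 0.0416% of those were higher. In *rpb1-CTD11* and *rpb1-CTD12* the spiked-in scale moved the median of all probes by -0.02 and -0.02. The study reports that its spiked-in controls detected no global change in mRNA levels. Of the 69 changes counted over all comparisons, 1 passed the test on the spiked-in scale (*NUT2* between *rpb1-CTD12* and *rpb1-CTD13*, which at 0.90, or 1.86-fold, also passed the fold threshold there), 37 did with arrays centred on their medians, and 12 did without the dye term.

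**Figure D2:**
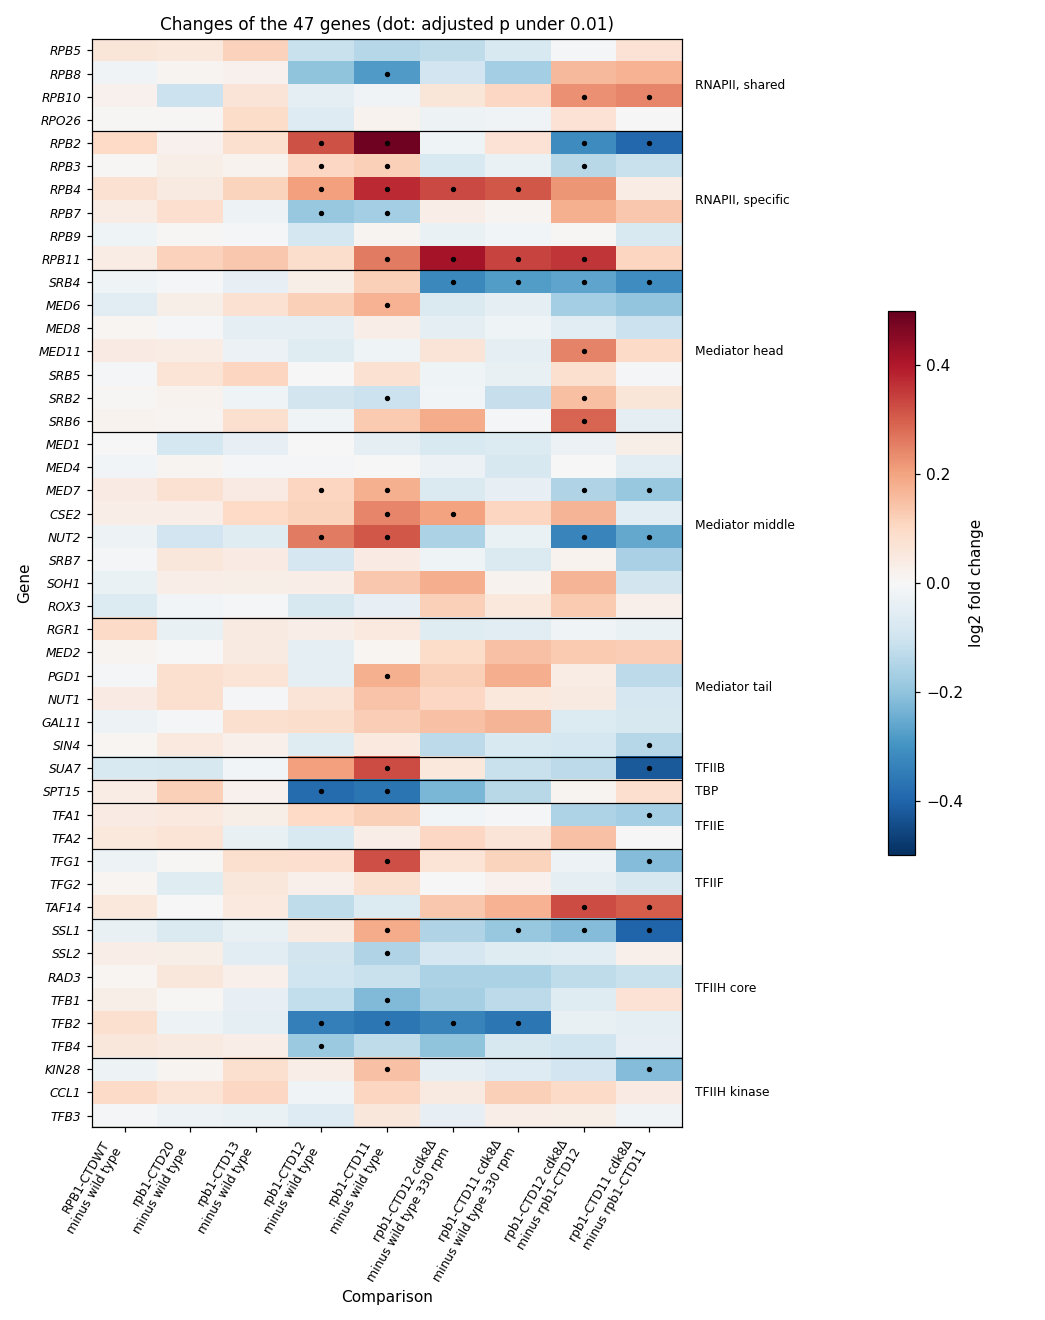
Log2 fold change (color, red higher and blue lower) of the 47 genes in rows, grouped by complex, for 9 comparisons in columns; a dot marks an adjusted p under 0.01, and *MED4* was not above background. Dots in the *rpb1-CTD12* and *rpb1-CTD11* columns number 9 and 20, and the columns of longer CTDs have none; on the spiked-in scale the direction turned for *RPB3* in *rpb1-CTD12* and for 10 dots of the last 2 columns.

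Among the 6 RNAPII subunits that no other polymerase uses, 4 were raised and 1 was lowered in *rpb1-CTD11*, against 24.3% and 24.9% of all probes. *RPB2*, the second largest subunit, which forms the catalytic center with Rpb1, ranged from 0.08 to 0.28 over the 8 wild type arrays with a median of 0.20. It stood at 0.67 and 0.67 in *rpb1-CTD11* and at 0.47 and 0.53 in *rpb1-CTD12*. All 4 arrays lay above every wild type array. *rpb1-CTD13* (0.27 and 0.26) and *rpb1-CTD20* (0.16 and 0.25) lay within the wild type range, and of *RPB1-CTDWT* (0.24 and 0.33) the b array was above it. The rise was 0.49 (SE 0.05, adjusted p = 1.0e-07) at 11 repeats and 0.32 (SE 0.05, adjusted p = 3.6e-05) at 12 repeats, and against wild type 330 rpm it was 0.46 and 0.29, with the adjusted p under 0.01 in both.

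*RPB4* and *RPB7* encode the partners of the stalk, a heterodimer that sits beside the exit of the transcript, and moved in opposite directions. *RPB4* ranged from -0.18 to 0.05 in wild type with a median of -0.10, and stood at 0.30 and 0.30 in *rpb1-CTD11* and 0.15 and 0.12 in *rpb1-CTD12*. *RPB7* ranged from -0.10 to 0.06 in wild type with a median of 0.00, and stood at -0.20 and -0.17 in *rpb1-CTD11* and -0.26 and -0.16 in *rpb1-CTD12*. Neither gene overlapped its wild type range in these 4 arrays. *RPB4* was raised by 0.37 (SE 0.06) at 11 repeats and 0.21 (SE 0.06) at 12, and *RPB7* changed by -0.17 (SE 0.04) and -0.19 (SE 0.04), with adjusted p values of 3.9e-05, 0.0093, 0.0028 and 0.0014 in that order. Against wild type 330 rpm only the rise of *RPB4* at 11 repeats still passed, with values of 0.11 for *RPB4* at 12 repeats and -0.12 and -0.14 for *RPB7*. The call of *RPB4* at 12 repeats was also lost without either *rpb1-CTD12* array and without 5 of the 8 wild type arrays (k1-a, k1-c, k1-d, k2-a and k2-b), and that of *RPB7* without either *rpb1-CTD11* array and without the a array of *rpb1-CTD12*, at values of 0.19 to 0.22 and of -0.24 to -0.14.

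*RPB3* and *RPB11* form another heterodimer, on which the enzyme is assembled. *RPB11* ranged from -0.17 to -0.02 in wild type with a median of -0.06, and both *rpb1-CTD11* arrays stood at 0.18, above all of them. In *rpb1-CTD12* it stood at -0.05 and 0.07, the first within the wild type range. The rise was 0.26 (SE 0.04, adjusted p = 2.1e-05) at 11 repeats, and the difference at 12 repeats was 0.09 (95% interval 0.0017 to 0.17, adjusted p = 0.085). *RPB3* was raised by 0.12 and 0.10 at 11 and 12 repeats, small steps beyond a wild type SD of 0.03. On the spiked-in scale the value of *RPB3* at 12 repeats turned to -0.01, and its calls were lost against wild type 330 rpm (0.08 and 0.06), without the a array of *rpb1-CTD11* and without either *rpb1-CTD12* array. *RPB9*, which acts in start site choice and fidelity, did not pass the test in any comparison.

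Of the subunits shared with RNAPI and RNAPIII, the 4 in the set had a median of -0.08 in *rpb1-CTD11* and -0.09 in *rpb1-CTD12*, and *RPB8* was the one of these that changed, in *rpb1-CTD11*. It ranged from -0.17 to 0.09 in wild type with a median of -0.11, and stood at -0.45 and -0.30 in *rpb1-CTD11*, below every wild type array. The change was -0.28 (SE 0.07, adjusted p = 0.0013), and it was lost without the a array (-0.20). *RPB5* had a value of -0.14 (adjusted p = 0.013), *RPB10* of -0.02 and *RPO26*, the gene of Rpb6, of 0.02. *RPC10*, the shared subunit gene outside the set, stood at -0.29 and -0.25 in *rpb1-CTD11*, below its wild type range of -0.14 to 0.02, a change of -0.20 (SE 0.05, adjusted p = 0.00092).

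Of 19 genes for subunits that belong to RNAPI or RNAPIII, 11 were lowered and 0 raised in *rpb1-CTD11* (median -0.24), against 24.9% and 24.3% of all probes. In *rpb1-CTD12* 5 were lowered (median -0.13), against 17.4% of all probes. The a array of *rpb1-CTD11* weighed most, since 4 were lowered without it (median -0.11) and 15 without the b array (median -0.37), and in *rpb1-CTD12* 1 was lowered without the a array and 0 without the b array (medians of -0.16 and -0.10). Their median was also -0.13 in wild type 330 rpm against wild type, with 0 of 19 past the adjusted p, and -0.06 and -0.13 in the double mutants at 11 and 12 repeats against wild type 330 rpm. *RPA34* of RNAPI changed by -0.53 (SE 0.07) and *RPC82* of RNAPIII by -0.42 (SE 0.07) in *rpb1-CTD11*. *RPO21*, the gene of Rpb1 itself, differed from wild type by -1.32, -1.34, -1.57, -0.34 and -0.97 in *rpb1-CTD11*, *-CTD12*, *-CTD13*, *-CTD20* and *RPB1-CTDWT*, and the order of these values did not follow the number of repeats. It varied widely in wild type, from -0.186 to 0.56. The a array of *rpb1-CTD20* (-0.05) lay within that range and the b array (-0.195) just below it.

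**Figure D3:**
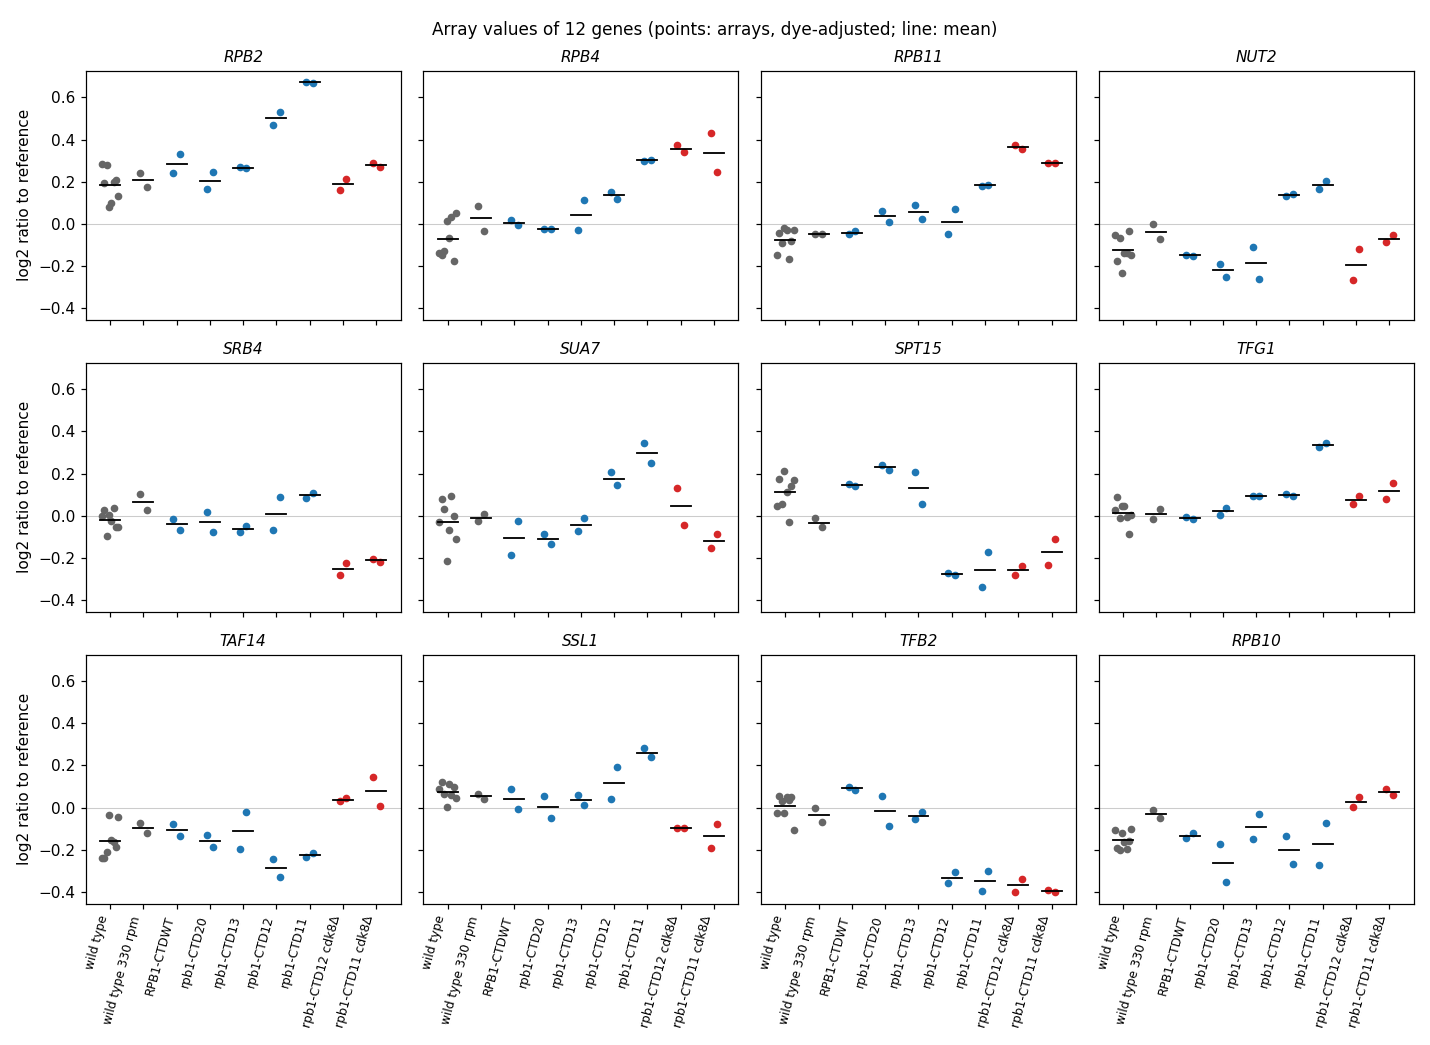
Log2 ratio to the reference of 12 genes on every array, after removal of the dye effect (vertical axis), by strain (horizontal axis); points are arrays, grey for wild types, blue for *CDK8* strains and red for *cdk8Δ* strains, and lines are group means. *RPB2* stands at 0.67 on both *rpb1-CTD11* arrays and between 0.16 and 0.29 on the 4 *cdk8Δ* arrays, while *TFB2* stays between -0.40 and -0.30 on all 8 arrays of strains with 11 or 12 repeats.

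Of the 21 Mediator subunits, 5 were raised and 1 lowered in *rpb1-CTD11* (median 0.08), against 24.3% and 24.9% of all probes. In *rpb1-CTD12* 2 were raised (median 0.00), against 18.6% of all probes. The middle module held 3 of the genes raised in *rpb1-CTD11*. *NUT2*, the gene of Med10, ranged from -0.24 to -0.04 in wild type with a median of -0.14. It stood at 0.17 and 0.20 in *rpb1-CTD11* and at 0.13 and 0.14 in *rpb1-CTD12*, above all wild type arrays, and at -0.11 and -0.26 in *rpb1-CTD13*, within and just below the wild type range. The rise was 0.31 (SE 0.05, adjusted p = 3.7e-05) at 11 repeats and 0.26 (SE 0.05, adjusted p = 0.00035) at 12, and the latter was lost without the b array of *rpb1-CTD12* and against wild type 330 rpm (0.17).

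*MED7*, which pairs with Med21 along the middle module, ranged from -0.19 to -0.07 in wild type with a median of -0.15, and stood at 0.02 and 0.05 in *rpb1-CTD11* and -0.06 and -0.02 in *rpb1-CTD12*. All 4 values lay above the wild type range, the a array of *rpb1-CTD12* by the least. The rise was 0.18 (SE 0.03) and 0.11 (SE 0.03), with adjusted p values of 4.9e-05 and 0.0061, and at 12 repeats the call was lost without either *rpb1-CTD12* array, without wild type k1-a or k2-b (0.09 to 0.13), and against wild type 330 rpm (0.08). *CSE2*, the gene of Med9, was raised by 0.24 (SE 0.04) at 11 repeats, and its value against wild type 330 rpm was 0.16, which did not pass. *MED1* was the lowest middle subunit at -0.05 (adjusted p = 0.38).

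In the head module, which touches the CTD, *MED6* had the highest value in *rpb1-CTD11* at 0.17 (adjusted p = 0.0071) and *SRB2*, the gene of Med20, the lowest at -0.11 (adjusted p = 0.0037). *MED6* stood at 0.03 and 0.10 in *rpb1-CTD11* and from -0.20 to 0.07 in wild type, so that the groups overlapped. The call of *MED6* was lost without either *rpb1-CTD11* array and without 5 of the 8 wild type arrays (k1-a, k1-c, k1-d, k2-b and k3-a; 0.13 to 0.21), and that of *SRB2* without either *rpb1-CTD11* array (-0.12 and -0.09). Against wild type 330 rpm, and with the wild type label as a random block, *MED6* did not pass either. None of the 7 head genes changed in *rpb1-CTD12*. Of the tail, which receives activators, only *PGD1*, the gene of Med3, was raised in *rpb1-CTD11* (0.18, SE 0.05), a call lost without either of its arrays (0.15 and 0.21), and *MED2* had the lowest value at 0.01. Of the 4 Cdk8 module genes outside the set, *SSN8*, the cyclin partner of Cdk8, was raised (0.15) and *SSN3* lowered (-0.32) in *rpb1-CTD11*.

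Of the 16 general factor genes, 4 were raised and 4 lowered in *rpb1-CTD11*, against 24.3% and 24.9% of all probes. In *rpb1-CTD12* 3 were lowered, against 17.4% of all probes. *SUA7*, which encodes TFIIB, the factor that bridges TBP and RNAPII, ranged from -0.22 to 0.09 in wild type with a median of -0.02. It stood at 0.34 and 0.25 in *rpb1-CTD11* and 0.21 and 0.14 in *rpb1-CTD12*, all above wild type. The rise was 0.33 (SE 0.07, adjusted p = 0.00033) at 11 repeats, lost without the a array (0.28), and the difference at 12 repeats was 0.20 (95% interval 0.06 to 0.34, adjusted p = 0.017).

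*SPT15*, which encodes TBP and serves all nuclear RNA polymerases, went down. It ranged from -0.03 to 0.21 in wild type with a median of 0.13, and stood at -0.34 and -0.17 in *rpb1-CTD11* and at -0.27 and -0.28 in *rpb1-CTD12*. These 4 arrays lay below all 8 wild type arrays and below both arrays of wild type 330 rpm (-0.01 and -0.06), while *rpb1-CTD13* (0.21 and 0.05) lay within the wild type range. The change was -0.37 (SE 0.06, adjusted p = 2.2e-05) at 11 repeats and -0.39 (SE 0.06, adjusted p = 2.5e-05) at 12. Against wild type 330 rpm it was -0.22 and -0.24 and passed the test in neither strain, and against *RPB1-CTDWT* it was -0.40 and -0.42 and passed in both.

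TFIIF binds RNAPII and brings it to the promoter. Its largest subunit gene, *TFG1*, ranged from -0.09 to 0.09 in wild type with a median of 0.01 and stood at 0.32 and 0.34 in *rpb1-CTD11*, against 0.10 and 0.10 in *rpb1-CTD12*. The *rpb1-CTD11* arrays were separate from every other array. The rise was 0.32 (SE 0.04, adjusted p = 5.1e-07) at 11 repeats, and the value at 12 repeats was 0.09 (adjusted p = 0.058). *TAF14*, a small TFIIF subunit also found in several chromatin complexes, had the lowest TFIIF value at -0.07. TFIIE, which recruits TFIIH, had values of 0.12 (*TFA1*, adjusted p = 0.015) and 0.03 (*TFA2*).

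The TFIIH core, which opens promoter DNA and repairs lesions, had a median of -0.14 in *rpb1-CTD11* and -0.11 in *rpb1-CTD12*. *TFB2*, whose product anchors the translocase Ssl2, ranged from -0.11 to 0.06 in wild type with a median of 0.04. It stood at -0.40 and -0.30 in *rpb1-CTD11* and at -0.36 and -0.31 in *rpb1-CTD12*, below every array of wild type, wild type 330 rpm, *rpb1-CTD13*, *rpb1-CTD20* and *RPB1-CTDWT*. The change was -0.36 (SE 0.04, adjusted p = 1.6e-06) and -0.34 (SE 0.04, adjusted p = 6.7e-06). It passed as well against wild type 330 rpm (-0.32 and -0.30) and against *RPB1-CTDWT* (-0.44 and -0.42).

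*TFB1* ranged from -0.09 to 0.13 in wild type and stood at -0.16 and -0.19 in *rpb1-CTD11*, below that range, a change of -0.22 (SE 0.04, adjusted p = 0.00016). *SSL2*, the translocase, changed by -0.15 (SE 0.04), a call lost without either *rpb1-CTD11* array (-0.17 and -0.13). It was also lost against wild type 330 rpm, with print-tip loess and with the authors' log2 ratios. *TFB4* changed by -0.18 (SE 0.05) in *rpb1-CTD12*, lost without either of its arrays (-0.22 and -0.15) and against wild type 330 rpm (-0.10). *SSL1* of the same core went up, from a wild type range of 0.00 to 0.12 to 0.28 and 0.24 in *rpb1-CTD11*, a change of 0.19 (SE 0.04, adjusted p = 0.0011) that was lost without the a array (0.17). In the kinase module *KIN28*, which phosphorylates the CTD, was raised by 0.15 (SE 0.04, adjusted p = 0.0063) in *rpb1-CTD11*, but not without either *rpb1-CTD11* array nor without wild type k1-a, k1-c, k1-d or k2-b (0.10 to 0.19). The call of *KIN28* was also lost against wild type 330 rpm and with the wild type label as a random block. Its partner *TFB3* had a value of 0.06.

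General factor genes outside the set were raised where they changed in these strains. *TOA2* of TFIIA rose by 0.46 (SE 0.05) in *rpb1-CTD11* and 0.26 (SE 0.05) in *rpb1-CTD12*, and *TFB5*, the smallest TFIIH subunit, by 0.30 (SE 0.04) and 0.19 (SE 0.04). Of the 13 TFIID subunit genes counted, 6 were raised and 0 lowered in *rpb1-CTD11*, led by *TAF10* at 0.33 (SE 0.03), against 24.3% and 24.9% of all probes. In *rpb1-CTD12* 1 was raised, against 18.6% of all probes.

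The changes in *rpb1-CTD11* and *rpb1-CTD12* rest on the same wild type arrays. Compared directly, the strains differed in 1 gene, *TFG1*, higher in *rpb1-CTD11* by 0.24 (SE 0.05, adjusted p = 0.0016), against 7.76% of all probes. That call was lost without the b array of *rpb1-CTD11* and without either *rpb1-CTD12* array (0.22 to 0.25). Leaving out the a array of *rpb1-CTD11* took the count of changed genes in that strain from 20 to 10, and without either *rpb1-CTD12* array its count went from 9 to 4.

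The step from 13 to 12 repeats was tested directly, and 5 genes differed, against 23.8% of all probes. *NUT2* was higher in *rpb1-CTD12* than in *rpb1-CTD13* by 0.32 (SE 0.06) and *RPB2* by 0.24 (SE 0.06). *SPT15* differed by -0.41 (SE 0.07), *TFB2* by -0.29 (SE 0.06) and *RPB5* by -0.23 (SE 0.06), with adjusted p values of 0.00031 to 0.0059 over the 5 genes. Relative to the spiked-in probes, which moved the median of all probes by 0.52 in this contrast, the 3 negative values turned to 0.11, 0.29 and 0.27. *rpb1-CTD12* and *rpb1-CTD13* also differed in *OLI1* (-5.28), and its part was not tested. The count of 5 was 2 and 3 without the a and b arrays of *rpb1-CTD12*, and 3 and 1 without those of *rpb1-CTD13*. *RPB2* lost its call without any one of the 4 arrays (0.20 to 0.27), *RPB5* without any but the a array of *rpb1-CTD13*, *SPT15* without that array, *NUT2* without the b array of *rpb1-CTD13*, and *TFB2* without that array or the a array of *rpb1-CTD12*.

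The 10 arrays of wild type 330 rpm, *rpb1-CTD11*, *rpb1-CTD12* and the double mutants carry array numbers after those of all other arrays, and what the numbers stand for is not stated. Against wild type 330 rpm, 14 genes changed in *rpb1-CTD11*, 13 of them among the 20, where 33.6% of all probes changed, and 5 changed in *rpb1-CTD12*, with *RPB2* and *TFB2* among the 9, where 19.8% did. *GAL11*, the tail subunit Med15 that activators bind, was then higher in both strains, by 0.25 and 0.21. Its values against wild type did not pass, and wild type 330 rpm stood at 0.04 and 0.09 against a wild type median of 0.20. With *RPB1-CTDWT* as the control, 16 genes changed in *rpb1-CTD11*, 15 of them among the 20, where 42% of all probes changed. In *rpb1-CTD12* 6 changed, all among the 9, where 29.2% did. The calls lost there were *RPB8*, *RPB3*, *SRB2*, *PGD1* and *KIN28* at 11 repeats and *RPB3*, *RPB4* and *MED7* at 12. *RPB1-CTDWT* lacked the higher *LYS2* of both truncation strains, a difference whose part was not tested.

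Loss of *CDK8* was examined in the same way, first in the double mutants against wild type 330 rpm. Of the 47 genes, 2 were raised and 3 lowered in *rpb1-CTD11 cdk8Δ* (10.6%, against 28.4% of all probes, 15.2% raised and 13.2% lowered), and 3 were raised and 2 lowered in *rpb1-CTD12 cdk8Δ* (10.6%, against 26.8%, 15.6% raised and 11.2% lowered). At 11 repeats these were *RPB4*, *RPB11*, *SRB4*, *SSL1* and *TFB2*, and at 12 repeats *RPB4*, *RPB11*, *CSE2*, *SRB4* and *TFB2*, against the same control arrays. Against the 8 wild type arrays the counts were 15 and 17, where 46.5% and 48.6% of all probes changed, and all 10 calls were among them. At 11 repeats fewer genes, and a smaller share of all probes, changed without the a array of *rpb1-CTD11 cdk8Δ* or either array of wild type 330 rpm. The same held at 12 repeats without the a array of *rpb1-CTD12 cdk8Δ*. *RPB4* was raised by 0.31 (SE 0.08) at 11 repeats and 0.33 (SE 0.08) at 12, and each call was lost without the a array of its double mutant and without the b array of wild type 330 rpm, at 12 repeats also without the b array of the double mutant. *CSE2* was raised at 12 repeats (0.20, SE 0.05) and *SSL1* lowered at 11 (-0.19, SE 0.05), calls that were each lost without the a array of the double mutant or without either array of wild type 330 rpm.

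**Figure D4:**
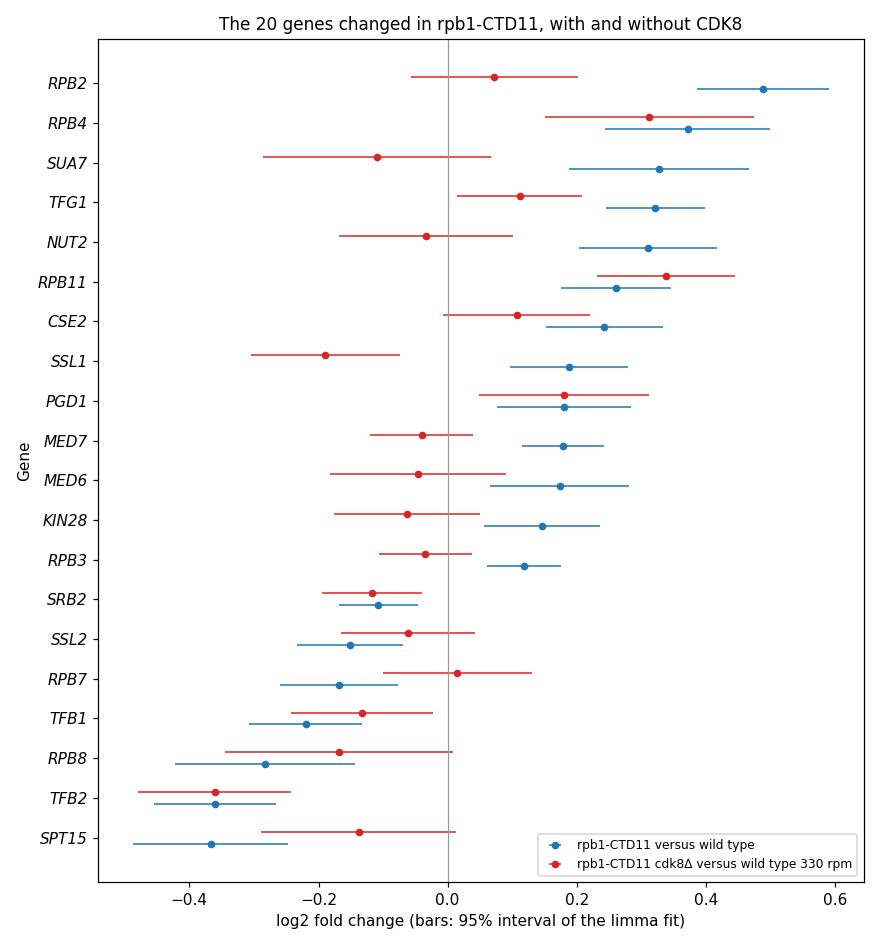
Log2 fold change with its 95% interval (horizontal axis) of the 20 genes changed in *rpb1-CTD11* (vertical axis), for *rpb1-CTD11* against wild type (blue) and for *rpb1-CTD11 cdk8Δ* against wild type 330 rpm (red). *RPB2* went from 0.49 to 0.07 and *SSL1* from 0.19 to -0.19, while *TFB2* stood at -0.36 in both; blue and red have different controls, and the genes were chosen by the blue values.

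In direct comparison with *rpb1-CTD11*, 2 genes were higher and 10 lower in *rpb1-CTD11 cdk8Δ* (25.5%, against 38.6% of all probes, 19.7% higher and 18.9% lower). *RPB2* stood at 0.29 and 0.27 in the double mutant, against 0.67 and 0.67 in *rpb1-CTD11*, a change of -0.39 (SE 0.06, adjusted p = 3.3e-05), and was at 0.07 (95% interval -0.06 to 0.20) relative to wild type 330 rpm. *SUA7* went from 0.34 and 0.25 to -0.15 and -0.09, the largest fall at -0.42 (SE 0.08, adjusted p = 0.00040). *SSL1* went from 0.28 and 0.24 to -0.19 and -0.08, a change of -0.40 (SE 0.05, adjusted p = 7.5e-06). In all 3 genes the arrays of the strains were apart, and *SSL1* ended below the wild type range of 0.00 to 0.12.

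*SRB4*, the gene of Med17 and the central scaffold of the Mediator head, behaved differently, since it had not passed the test in *rpb1-CTD11* (0.12, adjusted p = 0.023). It ranged from -0.10 to 0.04 in wild type, and stood at -0.20 and -0.22 in *rpb1-CTD11 cdk8Δ* and at -0.28 and -0.23 in *rpb1-CTD12 cdk8Δ*. These 4 arrays were the lowest of all 24. Against wild type 330 rpm the change was -0.28 (SE 0.05, adjusted p = 0.00040) and -0.32 (SE 0.05, adjusted p = 0.00012), the first lost without the a array of wild type 330 rpm (-0.24). Against the 8 wild type arrays it was -0.19 and -0.23, and also passed.

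*NUT2* (-0.26, SE 0.06), *MED7* (-0.19, SE 0.04), *TFG1* (-0.22, SE 0.05) and *KIN28* (-0.22, SE 0.05) were also lower in *rpb1-CTD11 cdk8Δ* than in *rpb1-CTD11*. Scaled to the spiked-in probes, which moved the median of all probes by 0.20 in this contrast, *MED7*, *TFG1* and *KIN28* turned to 0.01, 0.05 and 0.05. The calls of *TFA1* (-0.17) and of the tail subunit *SIN4* (-0.14) were lost without any one of the 4 arrays and turned to 0.13 and 0.15 on the spiked-in scale. The genes that were higher were *TAF14* (0.30, SE 0.07) and *RPB10* (0.24, SE 0.07), a small subunit shared by all nuclear RNA polymerases. Fewer genes, and a smaller share of all probes, changed without the a array of *rpb1-CTD11 cdk8Δ*. Without that array the calls of *NUT2*, *TFG1*, *KIN28*, *TAF14* and *RPB10* were lost. Those of *NUT2*, *KIN28*, *TAF14* and *RPB10* were each also lost without at least 1 other array.

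At 12 repeats, 6 genes were higher and 6 lower in *rpb1-CTD12 cdk8Δ* than in *rpb1-CTD12* (25.5%, against 32.4% of all probes, 17.5% higher and 14.9% lower). *RPB11* stood at 0.38 and 0.36 in the double mutant, the highest of all 24 arrays, against -0.05 and 0.07 in *rpb1-CTD12*, a rise of 0.36 (SE 0.05, adjusted p = 1.9e-05). It stood at 0.29 and 0.29 in *rpb1-CTD11 cdk8Δ*. Against wild type 330 rpm (-0.05 and -0.05) it was raised by 0.34 (SE 0.05) at 11 repeats and 0.42 (SE 0.05) at 12, the largest rises of the set in those comparisons.

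Of the Mediator head, *SRB6* (Med22), *MED11* and *SRB2* were higher in *rpb1-CTD12 cdk8Δ* than in *rpb1-CTD12* and *SRB4* was lower. *SRB6* stood at 0.24 and 0.06 against -0.18 and -0.11, *MED11* at -0.02 and -0.02 against -0.30 and -0.24. The rises were 0.29 (SE 0.06) for *SRB6*, lost without the a array of either strain (0.19 to 0.39 with 1 array left out), 0.25 (SE 0.04) for *MED11* and 0.15 (SE 0.04) for *SRB2*, lost without the b array of either strain. *SRB4* changed by -0.26 (SE 0.05), and on the spiked-in scale, where the median of all probes moved by 0.28, it turned to 0.10; its call was lost without the a array of *rpb1-CTD12 cdk8Δ* or the b array of *rpb1-CTD12* (-0.35 to -0.18).

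*RPB2* changed by -0.31 (SE 0.06), *NUT2* by -0.33 (SE 0.06), *SSL1* by -0.22 (SE 0.05), *MED7* by -0.15 (SE 0.04) and *RPB3* by -0.14 (SE 0.03) at 12 repeats. On the spiked-in scale *NUT2* stayed negative, and *RPB2*, *SSL1*, *MED7* and *RPB3* turned to 0.00, 0.12, 0.14 and 0.19. *TAF14* was higher by 0.32 (SE 0.07) and *RPB10* by 0.23 (SE 0.07). Fewer genes, and a smaller share of all probes, changed without either array of *rpb1-CTD12 cdk8Δ* and without the b array of *rpb1-CTD12*. Leaving out that b array lost the calls of *RPB2*, *SSL1*, *MED7*, *RPB3*, *TAF14* and *RPB10*. The call of *NUT2* was lost without the a array of *rpb1-CTD12 cdk8Δ* (-0.41 to -0.25 with 1 array left out).

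**Figure D5:**
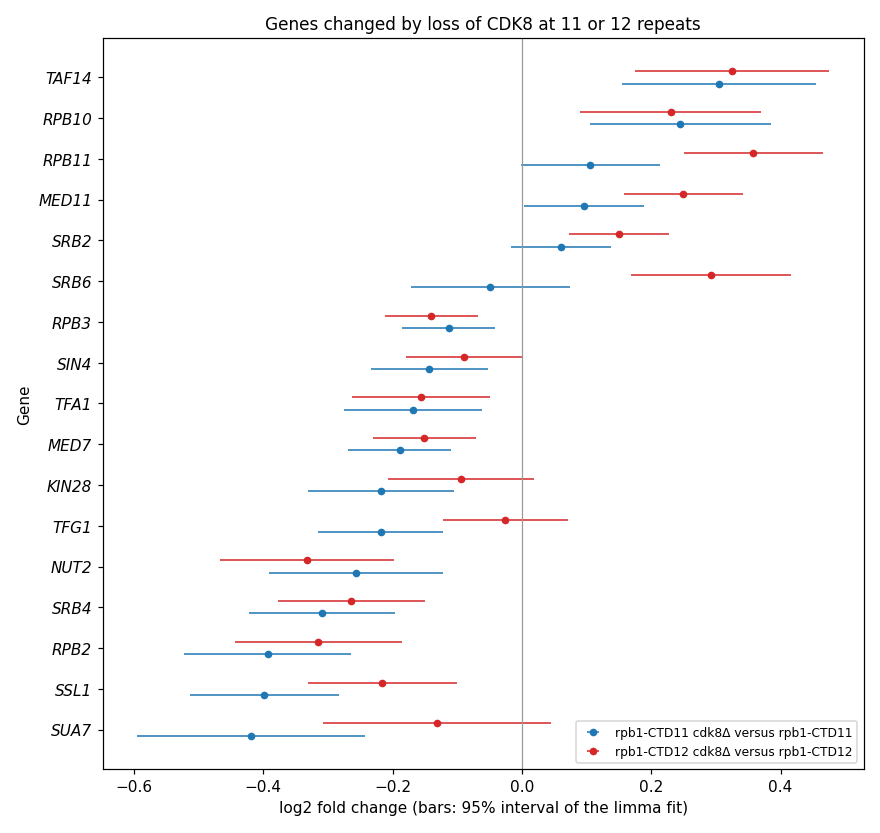
Log2 fold change with its 95% interval (horizontal axis) on loss of *CDK8*, at 11 repeats (blue) and 12 repeats (red), for the 17 genes changed in at least 1 of these comparisons (vertical axis). *RPB2*, *SRB4*, *NUT2*, *MED7* and *SSL1* were lower and *TAF14* and *RPB10* higher in both. On the spiked-in scale *MED7* turned at both lengths and *RPB2*, *SRB4* and *SSL1* at 12 repeats. The red calls of *SRB4*, *NUT2*, *MED7*, *SSL1* and *RPB10* were lost without the a array of *rpb1-CTD12 cdk8Δ*.

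These comparisons share no arrays, and 7 genes (14.9%) changed in both, against 23.9% of all probes. All 7 changed in the same direction, as did 99.7% of those probes: *RPB10* and *TAF14* were higher and *RPB2*, *SRB4*, *MED7*, *NUT2* and *SSL1* lower, with *MED7* turning on the spiked-in scale at both lengths and *RPB2*, *SRB4* and *SSL1* at 12 repeats. The overlap rests in part on the a array of *rpb1-CTD12 cdk8Δ*, which stood apart. Without it the calls of *RPB10*, *SRB4*, *MED7*, *NUT2* and *SSL1* at 12 repeats were lost. For the difference between the lengths in this response, 0 of the 47 genes passed in limma, against 2.29% of all probes, and 8 reached an unadjusted p under 0.05. The largest difference was that of *SRB6*, -0.34 (95% interval -0.52 to -0.17, adjusted p = 0.019), followed by *SUA7* at -0.29 and *SOH1*, the gene of Med31, at -0.26. In each of these genes the a array of *rpb1-CTD12 cdk8Δ*, which stood apart, was higher than the b array. The values were 0.24 and 0.06 for *SRB6*, 0.13 and -0.04 for *SUA7*, and 0.27 and 0.11 for *SOH1*. Without the b array of *rpb1-CTD12 cdk8Δ* 1 gene passed. As both double mutants also differed from their single mutants in *OLI1* and *MET17*, loss of *CDK8* and those differences cannot be told apart here.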

How the data were processed

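The 24 yeast RNA samples were hybridised on dual-channel arrays against a shared wild type reference pool. Per the labels, a and c arrays hold the sample in Cy3, and b and d arrays hold it in Cy5 (the design text gives the opposite order). The authors deposited scanner intensity values of 15552 spots per array, extracted with Imagene, and a table of log2 ratios per spot, normalized by print-tip loess without background subtraction and corrected for dye bias. The table's values followed the scanner ratios on every array (correlations of 0.658 to 0.952) with medians near 0, and were used as an alternative. A further deposited table of the authors' own comparisons was not used.

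Intensity was corrected with normexp (offset 50), normalized by loess (span 0.3, control spots at weight 0), turned to sample over reference and averaged over the spots of a probe. limma 3.58.1 in R 4.3.3 fitted 1 coefficient per group and a dye term over all 24 arrays, and Benjamini-Hochberg adjustment ran over 6388 gene probes. The dye letter is also the replicate label. The differences between a and b arrays correlated across groups (0.621 to 0.927 over 28 pairs of groups). Dye and replicate letter cannot be told apart here, and the dye term stands for both. No arrays held identical values (276 pairs). Median sample signals were 314 to 1184, a probe counted as above background over percentile 99 of the empty spots, and the number of arrays limits the precision. The study's notes name limma 2.12.0. The fit was tested on simulated data.

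The 47 genes and the other gene lists were chosen with earlier results of these data known. Values per array are given for up to 5 changed genes in each direction with the largest change in *rpb1-CTD11*, in *rpb1-CTD12* and on loss of *CDK8* at each length, moving the same way on both arrays, and the highest and lowest gene of each subcomplex in *rpb1-CTD11*. Alternatives were other background correction, normalization, scaling, control, dye and block terms, the series table, a background filter, unadjusted p values and leaving out each array. Using the other controls for single genes, and leaving out arrays for the RNAPI and RNAPIII genes, was decided after seeing the data.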

Additional observations from a re-analysis of the deposited data

Results flagged for a closer look

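Among the 8 wild type arrays, 5 of the 47 genes had 1 array far from the other 7 by Dixon's test (critical value 0.526), where chance gives about 1 in 20 for independent arrays. Arrays with the same k label may not be independent, and the other probes were not tested this way. No excess is therefore read from this count. *RPB9* stood at 0.156 on k3-a (nearest array 0.0616), *MED6* at 0.0656 on k2-a (nearest -0.087), *MED7* at -0.0723 on k1-c (nearest -0.14), *MED2* at 0.0881 on k2-a (nearest 0.00838) and *TFB1* at -0.0911 on k2-a (nearest 0.0297), all as log2 ratios to the reference. Array k2-a holds 3 of the 5.

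Strains of neighbouring CTD lengths differed directly, with an adjusted p under 0.01 in limma, in *TFG1* between 11 and 12 repeats (0.236) and in *NUT2* (0.323), *RPB2* (0.236), *RPB5* (-0.229), *TFB2* (-0.294) and *SPT15* (-0.407) between 12 and 13 repeats. The strains with 11 and 12 repeats also differed in *MET17*, and those with 12 and 13 in *OLI1*. On the spiked-in scale *RPB5*, *TFB2* and *SPT15* turned to positive values.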

How the results depend on the processing

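The 69 changes counted over all comparisons kept their direction and their call in 69 cases with probes above background only, 69 with the unadjusted p, 63 with the authors' series table, 62 with print-tip loess, 60 with the wild type label as a random block, 58 without background correction, 37 with median centring, 12 without the dye term and 1 on the spiked-in scale. Without single arrays, 25 kept the call in every case and 44 lost it in at least 1. Of 29 calls against wild type, 21 held against *RPB1-CTDWT* and 15 against wild type 330 rpm. With 2 arrays a strain, changes near the median SE of 0.04 could not pass the test, and the cause of the losses below was not tested.

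With no replicate block (no dye term) the count of changed genes went from 20 to 6 in *rpb1-CTD11* and from 9 to 2 in *rpb1-CTD12* against wild type, from 5 to 0 in each double mutant against wild type 330 rpm, from 12 to 3 and from 12 to 1 on loss of *CDK8* at 11 and 12 repeats, from 1 to 0 between *rpb1-CTD11* and *rpb1-CTD12*, and from 5 to 0 between *rpb1-CTD12* and *rpb1-CTD13*. The shares of all probes fell as well, to 24.6%, 13.2%, 11.4%, 10.2%, 17.8%, 13%, 1.44% and 6.28% in that order. In the same order of comparisons the spiked-in scale gave 0, 0, 0, 0, 0, 0, 0 and 1, and 43 in *rpb1-CTD13*, all lower, where there were 0. The shares of all probes there were 3.73%, 0.798%, 2.44%, 1.94%, 4.82%, 4.23%, 0.0157% and 13.4%, and 75.2% in *rpb1-CTD13*. Median centring gave 3 in *rpb1-CTD12*, 3 in each double mutant, 6 and 6 on loss of *CDK8*, 0 between 11 and 12 repeats and 2 between 12 and 13. Of all probes 26.8%, 19.6% and 17.9%, 28.8% and 21.4%, 4.01% and 14.4% changed in these comparisons. An unadjusted p under 0.01 in place of the adjusted p gave 1 in *rpb1-CTD13*, 1 in wild type 330 rpm, 9 and 10 in the double mutants, 3 between *rpb1-CTD11* and *rpb1-CTD12*, and 4 for the difference in response to loss of *CDK8*. Of all probes 14.2%, 16.4%, 35.1%, 33.5% and 16.8% passed in these comparisons, in that order and without the last. With wild type 330 rpm as the control *rpb1-CTD12* had 5, against 19.8% of all probes. With wild type as the control the double mutants had 15 and 17, against 46.5% and 48.6%.

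Leaving out single arrays gave 10 to 21 in *rpb1-CTD11*, 4 to 11 in *rpb1-CTD12*, 3 to 5 in *rpb1-CTD11 cdk8Δ* and 3 to 6 in *rpb1-CTD12 cdk8Δ*, 5 to 8 and 4 to 9 on loss of *CDK8* at 11 and 12 repeats, 0 to 1 between 11 and 12 repeats, 1 to 3 between 12 and 13, and 0 to 1 for the difference in response.

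Values that changed sign did so on the spiked-in scale. On loss of *CDK8* at 11 repeats they became 0.051 (*KIN28*), 0.0072 (*MED7*), 0.15 (*SIN4*), 0.13 (*TFA1*) and 0.049 (*TFG1*), and at 12 repeats 0.14 (*MED7*), 0.0031 (*RPB2*), 0.19 (*RPB3*), 0.10 (*SRB4*) and 0.12 (*SSL1*). *RPB3* became -0.0096 in *rpb1-CTD12*, and between 12 and 13 repeats *RPB5* became 0.27, *SPT15* 0.11 and *TFB2* 0.29.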
